A study of Mus musculus with 9 samples.

Results

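The genes described here build the glycosylphosphatidylinositol (GPI) anchor, attach it to proteins and then remodel it. They were taken by gene symbol from a list of 31, of which 30 were among the 25500 entries measured in splenic Tregs. *Pigy*, a small subunit of the first enzyme of the pathway, was not found under its symbol and is not analysed here. The group was selected on measured values, since it was put forward when differences in FPKM between KO and WT Tregs were already known, although each member was then chosen by its symbol alone. For this reason counts of its members are a description, set beside the share of all genes that passed the same test.

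GPI is a glycolipid that holds many proteins on the outer face of the plasma membrane. It is built on phosphatidylinositol in the ER, first on the cytoplasmic side and then on the luminal side, by adding glucosamine, mannoses and ethanolamine phosphate. A transamidase in the ER then cuts the C-terminal signal of a protein and joins the protein to the finished lipid. The attached anchor is remodeled in the ER and the Golgi, which allows its exit from the ER and its entry into lipid rafts. T cells carry many GPI-anchored proteins, among them CD73, folate receptor 4, Thy-1 and the Ly-6 family.

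KO mice were *Foxp3* eGFP-Cre-ERT2 *Hsp90b1* fl/fl, and WT mice were *Foxp3* eGFP-Cre-ERT2 *Hsp90b1* WT/WT, both on the C57BL/6 background. *Hsp90b1* encodes gp96, an HSP90 family chaperone of the ER lumen. Cre and GFP were driven from *Foxp3*, the gene of the transcription factor that defines Tregs, so deletion was aimed at cells expressing *Foxp3*, and WT mice carried the same Cre allele. Both genotypes received tamoxifen at 75 mg/kg for 10 days, which induced deletion of the floxed gene, and splenic GFP+ Tregs were sorted for RNA-Seq. Mice in the study were between 8 and 12 weeks of age. There were 5 KO libraries (KO 1 to KO 5) and 4 WT libraries (WT 1 to WT 4).

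The values were FPKM (fragments per kilobase of exon, brought to library size by the authors), so levels of different genes can be compared per length. Reads recovered from them summed to 12068195 to 24522263 in KO libraries and to 13889346 to 16666471 in WT libraries. *Hsp90b1* measured 1.77 to 3.11 FPKM in the 5 KO libraries and 44.4 to 62.9 FPKM in the 4 WT libraries. KO 1 and WT 1 stood apart from the other 7 libraries, with 19010 and 18079 genes above 0 against 20420 to 21292 in the others. The study describes 4 mice per genotype and its normalized table holds KO 2 to KO 5, so KO 2 to KO 5 were compared with WT 1 to WT 4, and KO 1 is given beside them. A mean of KO Tregs is that of KO 2 to KO 5. WT 1 stays in that comparison while KO 1 does not, so values without WT 1, with all 9 libraries, and with all 9 and a term for KO 1 and WT 1 are given where they change a call. None of 12 Treg markers was at 0 in all libraries, and 2 of the 12 were lower in KO Tregs. The 12 markers summed to 2239 to 2431 FPKM in KO 2 to KO 5 and to 3482 in KO 1. In WT libraries the sum was 2442 to 3748, or 2442 to 2603 without WT 1. *Izumo1r*, described below among the genes of GPI-anchored proteins, is in this list and was lower. The sums for markers of other cells were below those of the Treg markers in every library. The 12 B cell markers summed to 15.8 to 17.6 FPKM in KO 2 to KO 5, to 29.5 in KO 1 and to 24.7 to 31.8 in WT libraries, and the 12 myeloid markers to 3.61 to 10.6 FPKM in KO 2 to KO 5, to 19.96 in KO 1 and to 12.3 to 37.9 in WT libraries. The 7 plasma cell markers, which include *Xbp1*, a gene that other cells also use, summed to 32.7 to 54.2 FPKM in KO 2 to KO 5, to 70.1 in KO 1 and to 59.9 to 126.6 in WT libraries. The 8 CD8 T and NK cell markers summed to 6.04 to 13.1 FPKM in KO libraries (up to 8.22 without KO 1) and to 9.63 to 13.7 in WT libraries. The 8 erythroid markers summed to 0.781 to 4.74 FPKM in KO libraries and to 0.443 to 7.37 in WT libraries, and the 7 measured of 8 platelet markers to 1.74 to 4.38 in KO libraries and to 1.76 to 3.17 in WT libraries. No marker in these lists was at 0 in every library.

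The members in which all 5 KO libraries lay on one side of all 4 WT libraries were *Pgap1*, *Tmem8* and *Mppe1*. The RefSeq promoters of *Pgap1* and *Tmem8* (build GRCm38.p6, 250 bases before the start and 50 after it) are shown. *Tmem8* is listed by RefSeq under the symbol *Pgap6*. No promoter is printed for *Mppe1*, although it moved in the same direction, so those shown are a choice among such members. Capitals mark GC boxes (GGGCGG on either strand, so also CCGCCC), the sequence known to be bound by Sp1.
Pgap1, chr1:54557635-54557934, minus strand: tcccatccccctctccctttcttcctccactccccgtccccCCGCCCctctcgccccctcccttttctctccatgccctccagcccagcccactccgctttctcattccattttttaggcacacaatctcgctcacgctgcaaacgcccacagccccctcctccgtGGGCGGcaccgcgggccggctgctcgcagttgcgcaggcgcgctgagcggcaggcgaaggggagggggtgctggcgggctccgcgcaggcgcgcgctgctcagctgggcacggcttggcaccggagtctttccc
Tmem8, chr17:26113066-26113365, plus strand: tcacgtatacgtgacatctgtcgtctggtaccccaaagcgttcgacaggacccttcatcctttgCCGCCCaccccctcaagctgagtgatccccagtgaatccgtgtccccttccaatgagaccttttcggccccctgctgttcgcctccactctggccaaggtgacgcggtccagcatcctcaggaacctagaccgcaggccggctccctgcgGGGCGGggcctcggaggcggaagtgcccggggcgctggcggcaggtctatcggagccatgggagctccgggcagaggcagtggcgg
Each promoter holds 2 GC boxes. This motif occurs in 35.9% of 27025 promoters, 1 per gene, and in 15 of the 25 members with a promoter in the table. The promoters hold 26 CpG (*Pgap1*) and 23 CpG (*Tmem8*) against a median of 7 over all promoters, and 16.8% and 21.6% of promoters have at least as many. CCAAT, searched on both strands, is absent from the *Pgap1* window and occurs 1 time in that of *Tmem8*, and 37.9% of promoters have it. The ER stress response element, CCAAT followed after 9 bases of any kind by CCACG, was searched on both strands and overlaps the CCAAT motif. It occurs in 0 of the 25 member windows and in 0.13% of all promoters.

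Members were measured over a wide range of levels. Mean FPKM in WT Tregs (n = 4) lay below 1 for 1 member, between 1 and 5 for 12, between 5 and 10 for 6, between 10 and 20 for 6 and at 20 or above for 5. The median over the 30 members was 5.83 FPKM, against 7.85 FPKM over all genes tested. *Pigs* and *Mppe1* were at the top of this order and *Pigz* at the bottom. KO 1 and WT 1 were both above the other 7 libraries in 12 members and both below them in 10, and in 8 members they were not both outside. The share of all genes with such positions was not counted, so this is not shown to be particular to the members. Across the 29 members tested, the shift of these 2 libraries against the other 7 (log2) had a Spearman rho of −0.48 with exon length, and across 12152 genes the rho was −0.0648. These points share the same libraries and are described with no test.

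**Figure D1:**
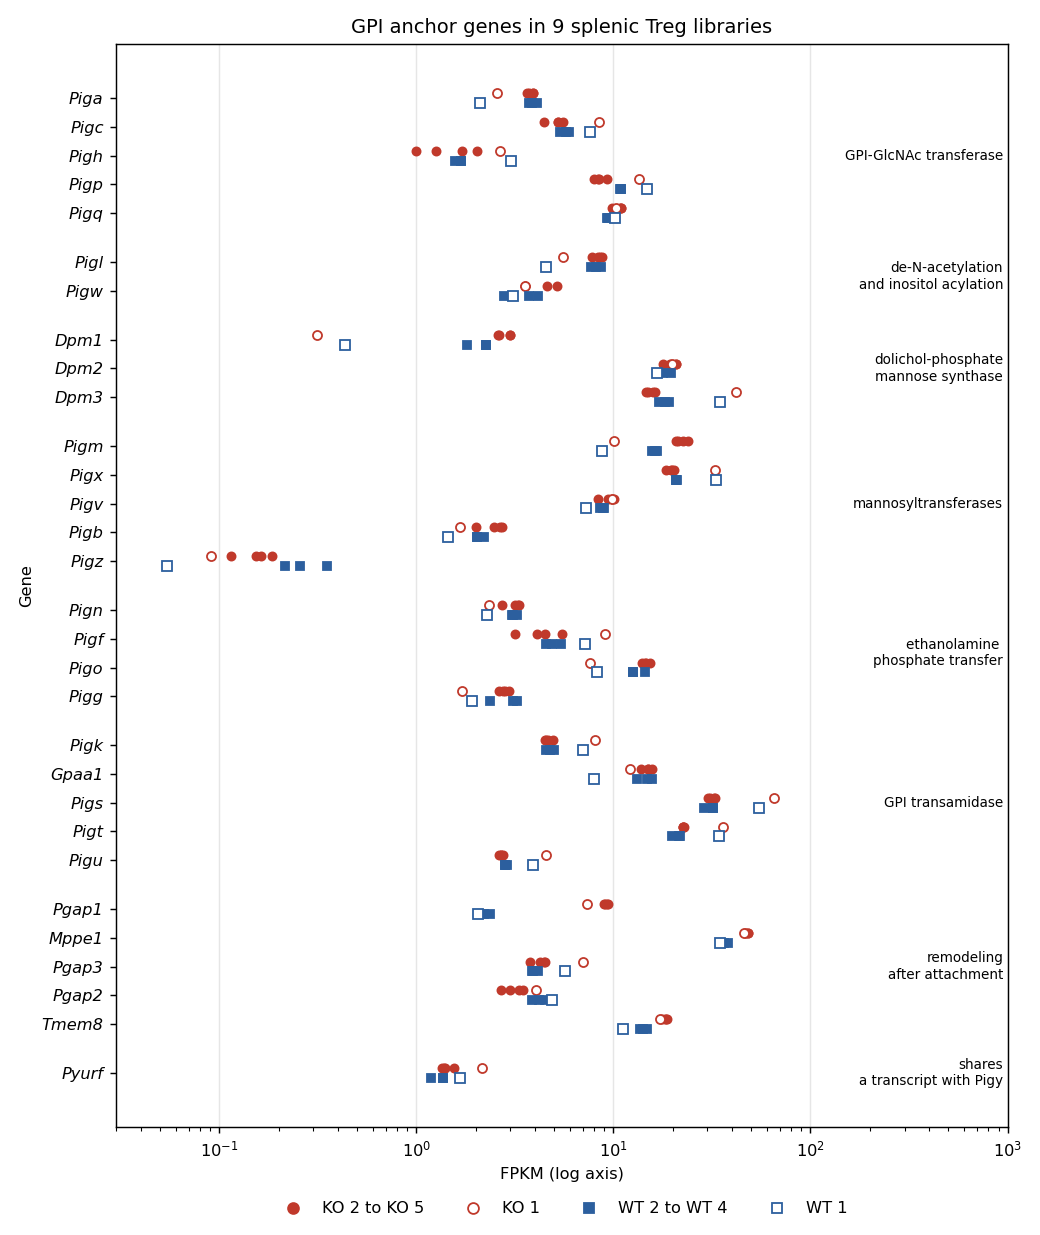
FPKM (log axis) of 30 GPI anchor genes in each of 9 libraries, in the order of the pathway, with KO libraries as circles above WT libraries as squares, and with open symbols for KO 1 and WT 1. The KO circles of *Pgap1* are apart from all WT squares. Both open symbols lie above all filled ones in 12 members and below them in 10, and the share of all genes that do so was not counted.

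Of the genes of anchor remodeling, 3 were higher and 1 lower in KO Tregs, and of the members with other roles only *Pigp* passed the test, as lower. Of 29 members tested with limma on log2(FPKM + 1), 3 were higher (*Pgap1*, *Mppe1* and *Tmem8*), 2 were lower (*Pgap2* and *Pigp*) and 24 did not pass an adjusted p of 0.05. Of all 12237 genes tested, 13.3% passed, 6.58% as higher and 6.68% as lower. The median log2 fold change (KO over WT, on the log2(FPKM + 1) scale, which understates changes of genes with low levels) was 0.08 over the 29 members and 0.01 over all genes. The median size of change without its sign was 0.23 for members and 0.25 for all genes. By value alone, KO 2 to KO 5 were all above WT 1 to WT 4 in 5 of 30 members and all below in 5, against 15.9% and 17.2% of all genes tested. With KO 1 included, 3 members were above with no overlap and none was below, against 6.1% and 5.69% of 12312 genes. Without WT 1, 5 members were higher and 3 lower, while 36.7% of 12593 genes passed (19.1% higher, 17.6% lower). With all 9 libraries, 3 were higher and 0 lower, and 6.76% of genes passed (3.21% higher, 3.55% lower). With all 9 and a term for KO 1 and WT 1, 4 were higher and 2 lower, and 36.3% of genes passed (19.3% higher, 17% lower). On recovered reads with limma-voom, 1 of 26 members tested was higher and 2 were lower, and 6.17% of 13464 genes were higher and 7.26% lower.

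**Figure D2:**
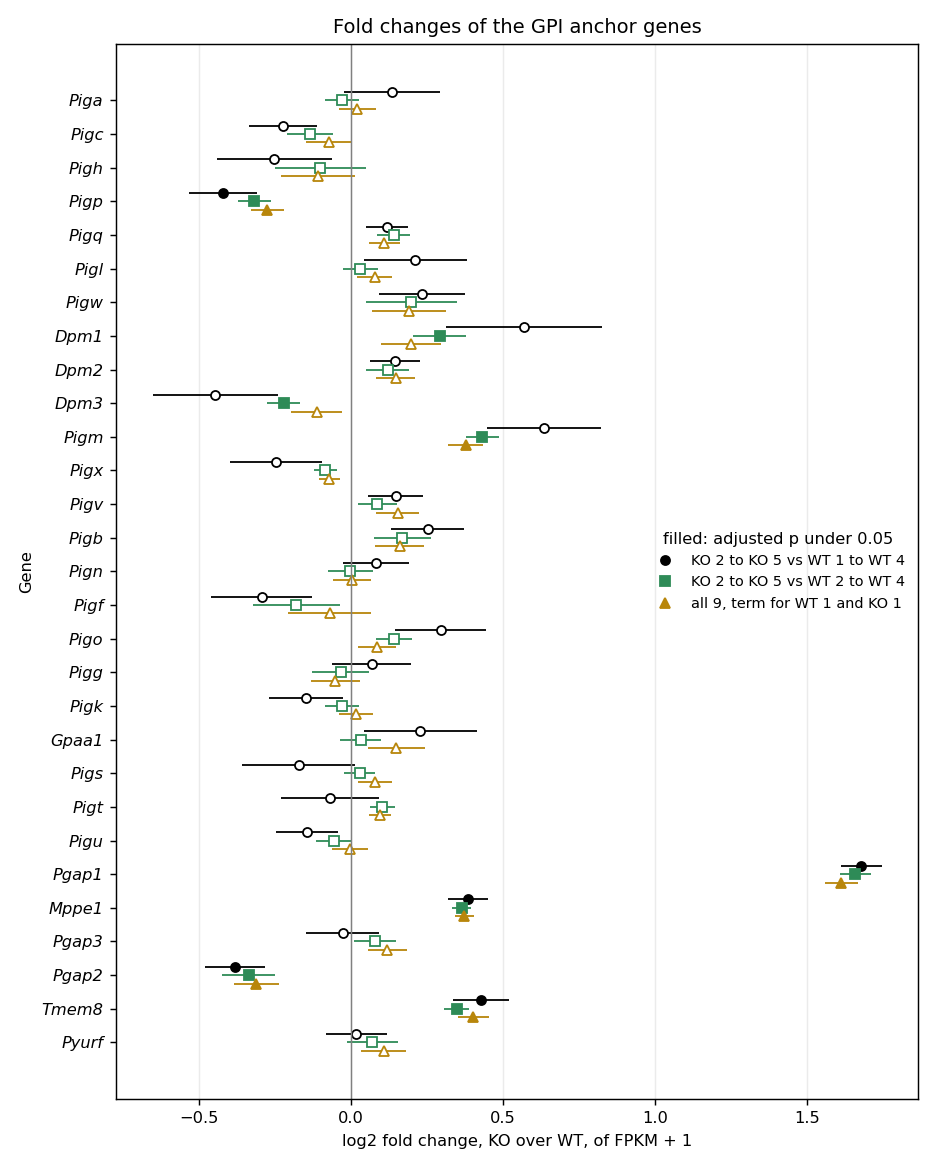
Log2 fold changes (KO over WT, of FPKM + 1) of the 29 tested members, with bars of 1 standard error, from 3 limma fits: KO 2 to KO 5 against WT 1 to WT 4 (circles), KO 2 to KO 5 against WT 2 to WT 4 (squares) and all 9 libraries with a term for KO 1 and WT 1 (triangles). Filled symbols have an adjusted p under 0.05, and *Pgap1* stands at 1.68, 1.66 and 1.61 in the 3 fits.

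Remodeling after attachment contained 5 members, of which 3 were higher, 1 lower and 1 did not pass. PGAP1 is the deacylase that removes the acyl chain from inositol once the anchor is on a protein, a step that favors exit from the ER. *Pgap1* (chr1:54472994-54557684, minus strand, GRCm38) measured 7.37, 8.96, 9.26, 9.08 and 9.44 FPKM in KO 1 to KO 5, against 2.05, 2.20, 2.37 and 2.10 FPKM in WT 1 to WT 4. All 5 KO libraries were above all WT libraries, and KO 1 was the lowest of the 5. The mean was 9.18 ± 0.21 FPKM in KO 2 to KO 5 and 2.18 ± 0.143 FPKM in WT Tregs (SD, n = 4 each), a ratio of 4.21. The log2 fold change was 1.68 ± 0.07 (standard error, limma adjusted p = 1.7e-05), and on recovered reads with limma-voom it was 2.08. *Pgap1* was the 3rd of 12237 genes by p and the 33rd by fold change, highest first. These values rest on 2073 to 2669 reads in KO libraries and 491 to 614 reads in WT libraries. The two-sided exact permutation test of KO 2 to KO 5 against WT gave p = 0.0286, the smallest that 4 against 4 allows. The exons of *Pgap1* overlap no other annotated gene, and its adjusted p under the alternatives tried ranged between 4.44e-07 and 0.00154.

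MPPE1, also called PGAP5, is the phosphodiesterase that takes the side-chain ethanolamine phosphate off the second mannose. *Mppe1*, on chromosome 18, measured 45.98, 46.7, 47.3, 48.4 and 47.99 FPKM in KO 1 to KO 5, against 34.6, 35.98, 36.4 and 38.1 FPKM in WT 1 to WT 4. The groups did not overlap, and KO 1 and WT 1 were each the lowest of their genotype. The means were 47.6 ± 0.751 in KO Tregs and 36.2 ± 1.43 FPKM in WT Tregs (SD, n = 4 each), a ratio of 1.31, with a log2 fold change of 0.39 and a limma adjusted p = 0.0079. The adjusted p stayed between 5.5e-05 and 0.0414 under the alternatives tried. Because whole reads could not be recovered for it, there is no test on reads, and its exons overlap *Gnal* on the other strand.

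TMEM8, also called PGAP6, is a phospholipase that can release some proteins from their anchors at the cell surface. *Tmem8* (chr17:26113299-26123254, plus strand) measured 17.2, 18.7, 18.3, 17.7 and 18.6 FPKM in KO 1 to KO 5, against 11.1, 14.2, 13.6 and 14.9 FPKM in WT 1 to WT 4. The groups did not overlap, and WT 1 was the lowest of the 9 libraries. The means were 18.3 ± 0.472 FPKM in KO 2 to KO 5 and 13.4 ± 1.62 FPKM in WT Tregs (SD, n = 4 each), a ratio of 1.36, and without WT 1 the WT mean was 14.2 ± 0.647 (n = 3) and the ratio 1.29. The log2 fold change was 0.43 (limma adjusted p = 0.0219). The call was lost when WT 3, KO 2, KO 3, KO 4 or KO 5 was left out (adjusted p = 0.0582, 0.0751, 0.0719, 0.0609 and 0.0588).

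PGAP2 and PGAP3 act in the Golgi, where PGAP3 is needed to remove an unsaturated fatty acid and PGAP2 to put a saturated one in its place. *Pgap2* (chr7:102210208-102238567, plus strand) measured 4.03, 3.49, 2.99, 2.68 and 3.32 FPKM in KO 1 to KO 5, against 4.89, 4.20, 4.52 and 3.88 FPKM in WT 1 to WT 4. KO 2 to KO 5 were below all WT libraries, and KO 1 lay within the WT range. The means were 3.12 ± 0.358 in KO Tregs and 4.37 ± 0.435 FPKM in WT Tregs (SD, n = 4 each), a ratio of 0.714, with a log2 fold change of −0.38 and a limma adjusted p = 0.0392. With all 9 libraries the adjusted p was 0.145, and the call was also lost when WT 2, WT 3, KO 2, KO 3, KO 4 or KO 5 was left out (adjusted p = 0.0665 to 0.114). Exons of *Pgap2* overlap an unnamed gene model on the same strand. *Pgap3* averaged 4.24 ± 0.338 FPKM in KO 2 to KO 5 and 4.39 ± 0.863 FPKM in WT Tregs, a log2 fold change of −0.03 that did not pass (adjusted p = 0.879). Both KO 1 (6.98 FPKM) and WT 1 (5.67 FPKM) were above the other 7 libraries, which lay between 3.77 and 4.51.

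**Figure D3:**
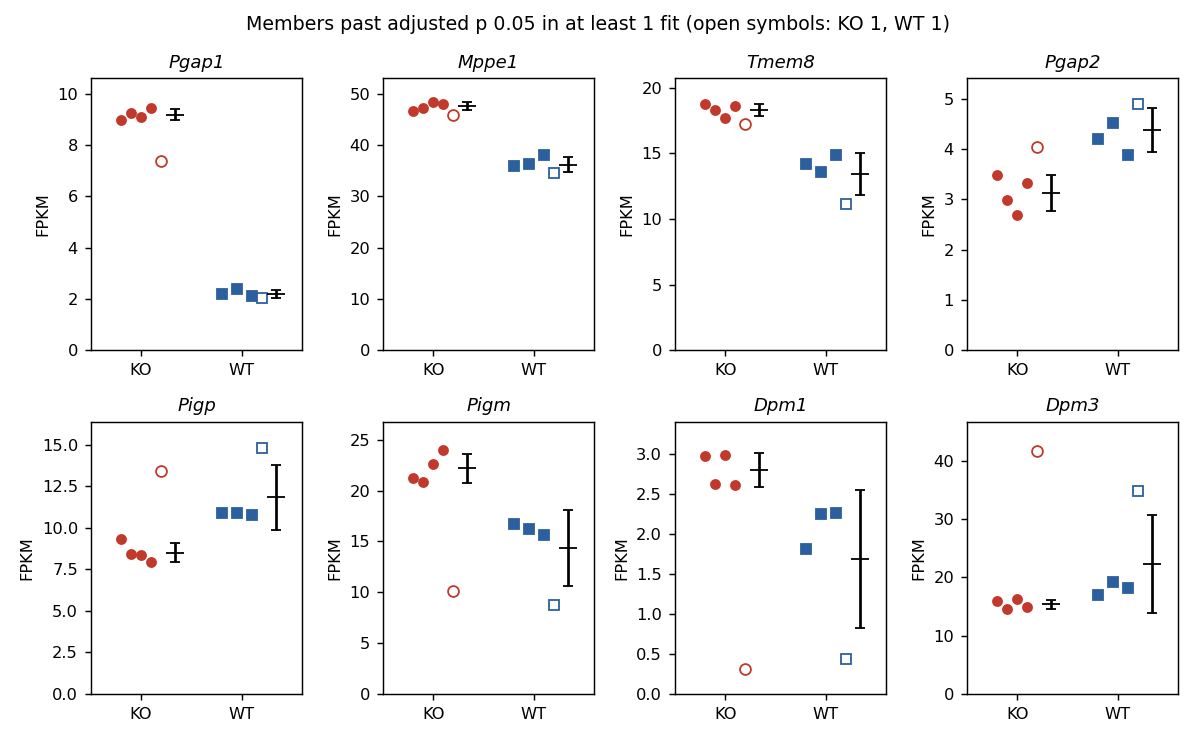
FPKM of 8 members in each library, KO at the left and WT at the right, with KO 1 and WT 1 as open symbols and bars for the mean ± SD of KO 2 to KO 5 and of WT 1 to WT 4. *Pgap1*, *Mppe1* and *Tmem8* do not overlap between all 5 KO and all 4 WT libraries, whereas KO 1 and WT 1 depart together from the rest in *Pigp*, *Pigm*, *Dpm1* and *Dpm3*.

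The GPI-GlcNAc transferase, which starts the pathway by adding N-acetylglucosamine to phosphatidylinositol, had 1 lower member among 5. PIGP is a small subunit of this enzyme. *Pigp* (chr16:94358763-94371842, minus strand) measured 13.4, 9.31, 8.40, 8.39 and 7.96 FPKM in KO 1 to KO 5, against 14.8, 10.9, 10.9 and 10.8 FPKM in WT 1 to WT 4. KO 2 to KO 5 were below all WT libraries, while KO 1 was above WT 2 to WT 4. The log2 fold change was −0.42 (limma adjusted p = 0.0431), and without WT 1 it was −0.32 (adjusted p = 0.00355), with means of 8.52 ± 0.57 FPKM in KO 2 to KO 5 (n = 4) and 10.9 ± 0.0454 in WT 2 to WT 4 (n = 3). With all 9 libraries the adjusted p was 0.399, and with the term for KO 1 and WT 1 it was 0.00429. The call was lost when WT 2, WT 3, WT 4, KO 2, KO 3, KO 4 or KO 5 was left out (adjusted p = 0.0569 to 0.116), and exons of *Pigp* overlap *Gm15310* on the same strand and *Ttc3* on the other.

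The other 4 subunits did not pass. *Piga*, the catalytic subunit, averaged 3.80 ± 0.147 FPKM in KO 2 to KO 5 and 3.45 ± 0.91 FPKM in WT Tregs. *Pigc* averaged 5.11 ± 0.476 in KO Tregs and 6.17 ± 0.979 in WT Tregs, and *Pigh* 1.49 ± 0.454 in KO Tregs and 1.99 ± 0.693 FPKM in WT Tregs. WT 1 was the lowest library for *Piga* and the highest for *Pigh*. *Pigq* averaged 10.6 ± 0.557 in KO Tregs and 9.73 ± 0.49 FPKM in WT Tregs (all SD, n = 4), and both means were above those of *Piga*, *Pigc* and *Pigh* in both genotypes. *Pyurf*, whose human counterpart shares a transcript with PIGY, averaged 1.42 ± 0.09 in KO Tregs and 1.39 ± 0.2 FPKM in WT Tregs (log2 fold change 0.02).

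De-N-acetylation and inositol acylation follow. *Pigl*, the de-N-acetylase, averaged 8.36 ± 0.421 FPKM in KO 2 to KO 5 and 7.27 ± 1.86 FPKM in WT Tregs, or 8.18 ± 0.492 without WT 1 (n = 3). *Pigw*, the inositol acyltransferase, averaged 4.22 ± 0.793 in KO Tregs and 3.43 ± 0.619 FPKM in WT Tregs. Neither passed, with log2 fold changes of 0.21 and 0.23 (adjusted p = 0.404 and 0.284), and their ranges overlapped.

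Dolichol-phosphate mannose synthase makes the mannose donor for GPI and also for N-glycans. None of its 3 genes passed with WT 1 included, and 2 passed without it, in opposite directions. *Dpm1*, the catalytic subunit, measured 0.313, 2.98, 2.62, 2.98 and 2.61 FPKM in KO 1 to KO 5, against 0.435, 1.81, 2.25 and 2.26 FPKM in WT 1 to WT 4. KO 2 to KO 5 were above all WT libraries, but KO 1 and WT 1 were below the other 7, with 51 and 47 reads against 222 to 330. The log2 fold change of *Dpm1* was 0.57 (adjusted p = 0.171), and without WT 1 it was 0.29 (adjusted p = 0.0341). *Dpm3*, the small subunit that tethers DPM1, measured 41.8, 15.9, 14.6, 16.2 and 14.95 FPKM in KO 1 to KO 5, against 34.8, 17.1, 19.2 and 18.2 FPKM in WT 1 to WT 4. Here KO 1 and WT 1 were above the other 7, and KO 2 to KO 5 were below all WT libraries. On the log2 scale it differed by −0.45 (adjusted p = 0.178), and by −0.22 without WT 1 (adjusted p = 0.0167). With the term for KO 1 and WT 1 neither gene passed (adjusted p = 0.153 and 0.319). *Dpm2*, a subunit that the GPI-GlcNAc transferase also uses, averaged 19.7 ± 1.37 FPKM in KO 2 to KO 5 and 17.7 ± 1.4 FPKM in WT Tregs (SD, n = 4 each), and its ranges overlapped.

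Among the mannosyltransferases, *Pigm* differed once WT 1 was left out. PIGM adds the first mannose, with PIGX as its partner. *Pigm* (chr1:172376546-172384099, plus strand) measured 10.1, 21.3, 20.9, 22.6 and 23.98 FPKM in KO 1 to KO 5, against 8.76, 16.7, 16.2 and 15.6 FPKM in WT 1 to WT 4. KO 2 to KO 5 were above every WT library, and KO 1 and WT 1 were below all the others. The log2 fold change was 0.63 (limma adjusted p = 0.0616). Without WT 1 the means were 22.2 ± 1.4 FPKM in KO 2 to KO 5 (n = 4) and 16.2 ± 0.537 FPKM in WT 2 to WT 4 (n = 3), a ratio of 1.37 and a log2 fold change of 0.43 (adjusted p = 0.000937). With all 9 libraries the adjusted p was 0.536, and with the term for KO 1 and WT 1 it was 0.00143.

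*Pigx* averaged 19.6 ± 0.718 FPKM in KO 2 to KO 5 and 23.9 ± 6.19 FPKM in WT Tregs, or 20.8 ± 0.148 without WT 1, and it did not pass (adjusted p = 0.285). *Pigv*, which adds the second mannose, averaged 9.40 ± 0.766 in KO Tregs and 8.40 ± 0.784 FPKM in WT Tregs, and *Pigb*, which adds the third, 2.47 ± 0.327 in KO Tregs and 1.92 ± 0.331 FPKM in WT Tregs (SD, n = 4 each). Both overlapped between genotypes. *Pigz*, which adds a further mannose that many anchors lack, lay between 0.0903 and 0.186 FPKM in KO libraries and between 0.0545 and 0.354 in WT libraries, on 4 to 7 reads in KO libraries and 2 to 14 in WT libraries, and was left out of the test for its low level.

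None of the 4 genes of ethanolamine phosphate transfer passed. *Pign*, which modifies the first mannose, averaged 3.13 ± 0.28 FPKM in KO 2 to KO 5 and 2.92 ± 0.438 FPKM in WT Tregs. *Pigo*, which adds the ethanolamine phosphate that later bridges to the protein, averaged 14.6 ± 0.62 in KO Tregs and 11.96 ± 2.61 FPKM in WT Tregs. KO 1 (7.58 FPKM) and WT 1 (8.24 FPKM) were the lowest libraries for *Pigo*, and the WT mean without WT 1 was 13.2 ± 1.03 (n = 3). *Pigg*, which acts on the second mannose, averaged 2.79 ± 0.133 in KO Tregs and 2.66 ± 0.62 FPKM in WT Tregs, and *Pigf*, the partner of PIGO and PIGG, 4.30 ± 0.961 in KO Tregs and 5.50 ± 1.15 FPKM in WT Tregs. Their log2 fold changes lay between −0.30 and 0.29, and between −0.18 and 0.14 without WT 1.

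The GPI transamidase joins the anchor to the protein in the ER lumen, and none of its 5 genes passed. *Pigk*, the catalytic subunit, averaged 4.65 ± 0.198 FPKM in KO 2 to KO 5 and 5.34 ± 1.15 FPKM in WT Tregs. *Gpaa1* averaged 14.9 ± 0.779 in KO Tregs and 12.9 ± 3.44 FPKM in WT Tregs, *Pigs* 31.6 ± 1.3 in KO Tregs and 36.9 ± 12 in WT Tregs, *Pigt* 22.6 ± 0.155 in KO Tregs and 24.4 ± 6.78 in WT Tregs, and *Pigu* 2.70 ± 0.0445 in KO Tregs and 3.11 ± 0.53 FPKM in WT Tregs (SD, n = 4 each). The order *Pigs*, *Pigt*, *Gpaa1*, *Pigk*, *Pigu* was the same in both genotypes. This order rests on exon lengths of 9495 bases for *Pigk* and 9326 for *Pigu*, against 2501 to 3856 for the others. WT 1 was above the other WT libraries for 4 of the 5 genes and below them for *Gpaa1*. Log2 fold changes lay between −0.17 and 0.23, and between −0.06 and 0.10 without WT 1. A p that misses the threshold does not show that the levels are equal.

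Genes whose protein products carry the anchor changed in both directions. The list of these genes was made with results of these data known, so its counts are a description. Of 62 genes listed, 54 were measured and 24 were tested. Of these, 3 were higher and 9 lower in KO Tregs, where 6.58% of all genes were higher and 6.68% lower. *Art3* exceeded 1 FPKM, the level needed for the test, only in WT libraries. *Ly6d*, *Ly6k* and *Ly6c2* did so mainly in WT libraries, and *Mmp25* mainly in KO libraries. With a filter at 5 FPKM, 2 of 15 were higher and 5 lower, against 528 and 471 of 7789 genes. This filter has the same limit. *Cd160* exceeded 5 FPKM only in WT libraries (6.17 to 7.31, against 2.36 to 2.95 in KO 2 to KO 5). *Rtn4rl1* did so mainly in KO libraries. The median log2 fold change of the 24 genes was −0.07, against 0.01 over all genes, and the median size without its sign was 0.63, against 0.25. *Nt5e* encodes CD73, the ectoenzyme that makes adenosine on Tregs. It measured 15.3, 17.7, 18.3, 18.4 and 18.4 FPKM in KO 1 to KO 5, against 35.6, 31.4, 32.9 and 37.3 FPKM in WT 1 to WT 4 (log2 fold change −0.88, limma adjusted p = 0.000305). *Izumo1r*, which encodes folate receptor 4, measured 228.0, 137, 132, 129 and 129 FPKM in KO libraries, against 511, 304, 311 and 304 FPKM in WT libraries (log2 fold change −1.40, adjusted p = 0.00254). Neither gene overlapped between all KO and all WT libraries, and WT 1 was far above the other WT libraries for *Izumo1r* but not for *Nt5e*.

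Of the other lower genes, *Cd160* averaged 2.75 ± 0.273 FPKM in KO 2 to KO 5 and 6.64 ± 0.543 FPKM in WT Tregs, and *Art2b*, an ecto-ADP-ribosyltransferase, 38.6 ± 0.923 in KO Tregs and 67.4 ± 9.18 FPKM in WT Tregs (SD, n = 4 each). *Prnp*, the prion protein gene, averaged 5.31 ± 0.533 in KO Tregs and 11.4 ± 4.26 FPKM in WT Tregs, and *Art3* 0.677 ± 0.0806 in KO Tregs and 1.38 ± 0.326 FPKM in WT Tregs. *Ly6d*, a Ly-6 family gene also expressed by B cells, averaged 0.49 ± 0.478 in KO Tregs and 2.90 ± 1.09 FPKM in WT Tregs, and *Ly6c2* 0.878 ± 0.226 in KO Tregs and 1.86 ± 0.248 FPKM in WT Tregs. The ninth, *Ly6k* (log2 fold change −0.97), falls outside the rule for named genes and was added after its values were seen. *Art2b* and the Ly-6 genes have near-identical relatives, and reads could be shared among them. For *Prnp*, *Ly6c2* and *Ly6k* the call was lost with all 9 libraries (adjusted p = 0.16, 0.445 and 0.183), and that of *Ly6c2* also with the term for KO 1 and WT 1 (0.135). The calls of *Art3* and *Ly6k* were lost without any library other than WT 1 (adjusted p up to 0.112 and 0.118), that of *Prnp* without any of KO 2 to KO 5 (up to 0.0746) and that of *Ly6c2* without WT 2, KO 3 or KO 4 (up to 0.0602).

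The 3 higher genes were those of the matrix metalloproteinase MMP25, of the Nogo receptor relative RTN4RL1, and of CD55, which inhibits complement. *Mmp25* measured 6.56, 4.22, 4.63, 4.29 and 4.80 FPKM in KO 1 to KO 5, against 0.614, 0.806, 0.69 and 1.03 FPKM in WT 1 to WT 4, a ratio of means of 5.72 without KO 1 (log2 fold change 1.62, limma adjusted p = 8.88e-05). All KO libraries were above all WT libraries. *Rtn4rl1* averaged 7.32 ± 0.403 FPKM in KO 2 to KO 5 and 4.06 ± 1.18 FPKM in WT Tregs, and *Cd55* 10.1 ± 1.82 in KO Tregs and 6.15 ± 1.28 FPKM in WT Tregs (SD, n = 4 each). For *Rtn4rl1* the call was lost when KO 2, KO 3 or KO 4 was left out (adjusted p = 0.0518 to 0.0543), and for *Cd55* with all 9 libraries (0.25) and when any library but WT 1 was left out (up to 0.102). *Ly6a*, the gene of Sca-1, was chosen after its values were seen. It averaged 63.4 ± 2.47 in KO Tregs and 39.01 ± 14.6 FPKM in WT Tregs and missed the threshold (adjusted p = 0.0531), although all 5 KO libraries were above all WT libraries. Without WT 1 its log2 fold change was 0.98 (adjusted p = 2.97e-05). *Ly6a* also passed with limma-voom on recovered reads (0.0364) and with the term for KO 1 and WT 1 (9.49e-06), but not with all 9 libraries (0.11).

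The summed B cell, plasma cell, myeloid, and CD8 T and NK cell markers were lower in KO 2 to KO 5 than in every WT library. So was the sum of the Treg markers, and KO 1 lay within the WT range for each of these sums. Of the 5 plasma cell markers tested, 2 were higher and 1 was lower in KO Tregs, with a median log2 fold change of 0.14. The part of cells other than Tregs in the differences of *Ly6d*, *Cd160* and the other anchored protein genes was not tested. Of the B cell markers, 2 of the 4 tested were lower, and the defining *Ms4a1* lay between 0 and 0.0961 FPKM in KO libraries and between 0.157 and 0.393 in WT libraries. Other B cell markers overlapped, among them *Cd22*, at 1.83 to 2.52 FPKM in KO libraries and 1.74 to 3.27 in WT libraries. The largest part of the B cell sum was *Cd79b*, at 10.7 to 25.5 FPKM in KO libraries and 14.6 to 21.5 in WT libraries. In bulk samples, fewer cells of a type and less RNA per cell cannot be told apart. On recovered reads, more genes of low level could be tested. With limma-voom, 34 genes of the list were tested, and 5 were higher and 14 lower. In that fit 6.17% of 13464 genes were higher and 7.26% lower. Some genes of the list reached the 10 reads needed mainly in the genotype where they were higher. *Lypd6b* had 4 to 6 reads in KO 2 to KO 5 and 26 to 41 in WT libraries. *Gfra1* had 62 to 86 in KO 2 to KO 5 and 4 to 11 in WT libraries. Without WT 1, 7 of 25 were higher and 12 lower, in a fit where 19.1% of all genes were higher and 17.6% lower.

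**Figure D4:**
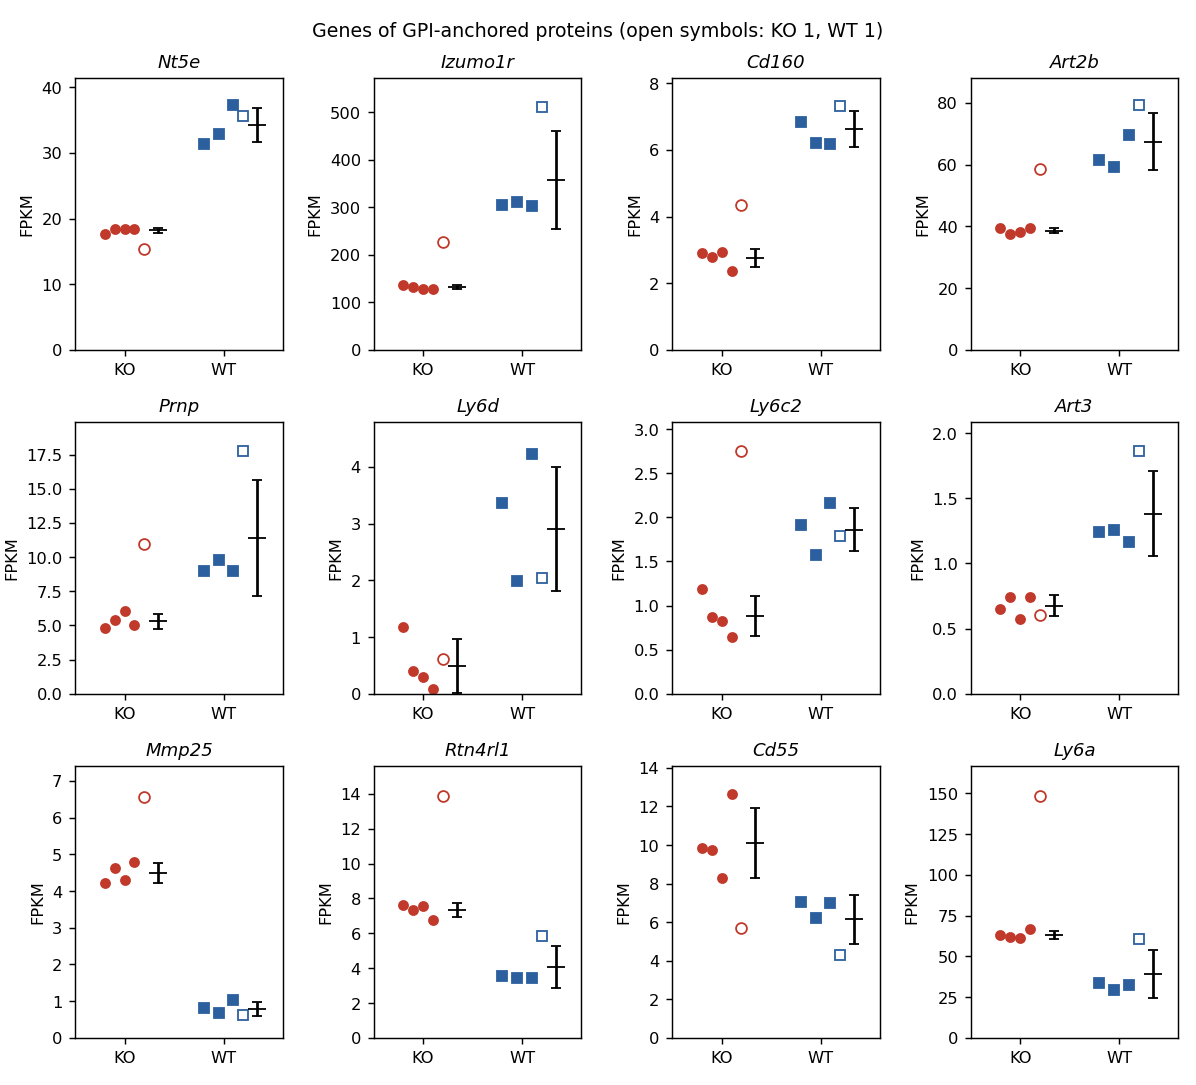
FPKM of 12 genes whose protein products are GPI-anchored, KO at the left and WT at the right, with open symbols for KO 1 and WT 1 and bars for the mean ± SD of KO 2 to KO 5 and of WT 1 to WT 4. *Nt5e*, *Izumo1r*, *Cd160*, *Art2b*, *Ly6d* and *Art3* are lower in all 5 KO libraries than in any WT library. *Mmp25*, *Rtn4rl1* and *Ly6a* are higher in all 5, and *Ly6a* missed the threshold in the limma comparison of KO 2 to KO 5 with WT 1 to WT 4.

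Genes that supply the pathway or carry its products differed in 3 of 35 tested, from 40 listed and 38 measured, in the fit where 13.3% of all genes passed. *Pmm2*, which makes mannose 1-phosphate, averaged 16.98 ± 0.384 FPKM in KO 2 to KO 5 and 11.5 ± 1.96 FPKM in WT Tregs (log2 fold change 0.54, limma adjusted p = 0.0243). *Sec24d*, a cargo adaptor of the COPII coat that takes proteins out of the ER, averaged 4.21 ± 0.382 in KO Tregs and 2.98 ± 0.307 FPKM in WT Tregs (0.39, adjusted p = 0.0306). *Etnk1*, an ethanolamine kinase, was lower, at 17.2 ± 0.884 in KO Tregs and 23.5 ± 1.38 FPKM in WT Tregs (−0.43, adjusted p = 0.00726, all SD, n = 4 each). In all 3 genes KO 1 to KO 5 did not overlap WT 1 to WT 4, yet with all 9 libraries none passed (adjusted p = 0.0855, 0.107 and 0.0547). The calls of *Pmm2* and *Sec24d* were also lost when any 1 of KO 2 to KO 5 was left out, and that of *Sec24d* when WT 2, WT 3 or WT 4 was. The median log2 fold change of the 35 genes was −0.03.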

How the data were processed

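RNA-Seq of sorted splenic Tregs was analysed from 5 KO and 4 WT libraries, each a separate sample in the labels. Whether each came from a separate mouse is not stated in the labels, so p-values measure the spread between these samples. The authors deposited FPKM per gene, and no other unit was used. Per the submitters' processing notes, CASAVA and fastp were used and the genome was mm10, with no versions named. For the aligner, the counter and its use of strand, nothing is stated in the sources used here, although the labels describe strand-specific libraries, so reads of overlapping genes may be shared.

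The members and the lists of GPI-anchored proteins, partner genes and cell markers were chosen with earlier results of these data known. Every member was named. Values by library were given for members past an adjusted p of 0.05 with WT 1, without it, or with a term for KO 1 and WT 1, and of the other lists the 8 of smallest p in each direction among those past it were named, with *Nt5e* and *Izumo1r*.

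KO 2 to KO 5 were compared with WT 1 to WT 4 by limma (version 3.58.1 in R 4.3.3) on log2(FPKM + 1) with its trend option. A gene was tested if it exceeded 1 FPKM in at least as many libraries as the smaller group holds, with Benjamini-Hochberg adjustment over all genes tested. The exact permutation test used the difference of mean log2 values. Reads were recovered from FPKM and GENCODE M21 exon lengths and were whole numbers (to 0.01 read) in 95.6% of entries, but not for *Pigq*, *Mppe1* and *Tmem8*. They are estimates of depth, and genes with few reads are measured with little precision. Alternatives were all 9 libraries, all 9 with the term, omission of each library, a block for the replicate number, scaling by median ratio or upper quartile, no filter, a filter at 5 FPKM, a pseudocount of 0.1, and limma-voom on genes with at least 10 recovered reads. Only the limma fit on log2(FPKM + 1) of the main comparison was run on simulated counts, drawn from the means of WT 2 to WT 4. These held no library that stands apart, so the effect of WT 1 on the calls could not be tested in this way. No pair of libraries was identical. Python 3.11.15 with pandas 2.3.3, numpy 2.4.6 and matplotlib 3.10.9 made tables and figures. Promoters are from RefSeq (GRCm38.p6).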

Additional observations from a re-analysis of the deposited data

Results flagged for a closer look

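Of 88 sets of values examined (44 genes, each in 5 KO and in 4 WT libraries), 40 held a library whose distance to the nearest of its own genotype was too large a share of the range by Dixon's test. Chance gives this in about 5% of sets, and all 40 values were those of KO 1 or WT 1, so they are not independent. KO 1 was the high library, in FPKM, for 17 genes, with 8.41 for *Pigc*, 13.4 for *Pigp*, 41.8 for *Dpm3*, 32.6 for *Pigx*, 8.04 for *Pigk*, 65.4 for *Pigs*, 36.1 for *Pigt*, 4.57 for *Pigu*, 6.98 for *Pgap3*, 2.14 for *Pyurf*, 58.7 for *Art2b*, 228 for *Izumo1r*, 2.75 for *Ly6c2*, 6.56 for *Mmp25*, 10.9 for *Prnp*, 13.9 for *Rtn4rl1* and 7.39 for *Sec24d*. It was the low library for 8, with 2.55 for *Piga*, 0.313 for *Dpm1*, 10.1 for *Pigm*, 7.58 for *Pigo*, 1.71 for *Pigg*, 7.37 for *Pgap1*, 15.3 for *Nt5e* and 12.95 for *Pmm2*. WT 1 was the high library for 13, with 3.03 for *Pigh*, 14.8 for *Pigp*, 34.8 for *Dpm3*, 33.2 for *Pigx*, 54.8 for *Pigs*, 34.5 for *Pigt*, 3.90 for *Pigu*, 5.67 for *Pgap3*, 1.87 for *Art3*, 25.5 for *Etnk1*, 511 for *Izumo1r*, 17.8 for *Prnp* and 5.83 for *Rtn4rl1*. It was the low library for 2, with 8.76 for *Pigm* and 8.56 for *Pmm2*. *Malat1*, a nuclear noncoding RNA, measured 30.6 FPKM in KO 1 and 24.9 in WT 1, against 182 to 374 in the other 7 libraries, and its part in these values was not tested.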

How the results depend on the processing

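Of the 2 libraries that stand apart, WT 1 enters the comparison and KO 1 does not, and the depth leaves *Pigz* and other genes of few reads untested. Over all genes, 805 were higher and 817 lower. These counts were 395 and 437 with all 9 libraries, 2377 and 2094 with all 9 and a term for KO 1 and WT 1, 528 and 471 with a filter at 5 FPKM, and lay between 384 and 2403 (higher) and between 417 and 2217 (lower) when 1 library was left out. The highest counts came without WT 1 and the lowest without a KO library.

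Of the members, 3 were higher and 2 lower. Leaving out 1 library gave 2 to 5 higher and 0 to 3 lower, limma-voom on recovered reads 1 higher, with *Mppe1* and *Tmem8* not tested, all 9 libraries or no filter 0 lower, and upper quartile scaling or a filter at 5 FPKM 1 lower. Of GPI-anchored protein genes, 3 were higher and 9 lower. All 9 libraries with the term gave 8 higher, limma-voom 5 higher and 14 lower, no filter 14 lower, a filter at 5 FPKM 5 lower, and leaving out 1 library 1 to 7 higher and 6 to 12 lower. Of partner genes, 2 were higher and 1 lower. All 9 libraries gave 0 in each direction, the term 11 higher and 2 lower, no filter or a filter at 5 FPKM 1 higher, limma-voom 2 lower, and leaving out 1 library 0 to 9 higher and 1 to 3 lower. No named gene that passed changed direction under the alternatives tried.

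KO and WT libraries share the numbers 1 to 4, but nothing in the labels pairs them. Over the 8 libraries compared, deviations of same-numbered libraries correlated at 0.044, −0.105 and 0.00795 for replicates 2, 3 and 4, and 1 of 6 libraries correlated best with its own number. Over all 9 libraries, with KO 1 and WT 1 apart from the rest, the correlations were 0.867, 0.425, 0.316 and 0.469 for replicates 1 to 4. With the replicate number as a block, in which WT 1 and KO 5 have no partner, 1891 genes were higher and 1777 lower, 6 GPI-anchored protein genes and 8 partner genes were higher, and *Pigm* passed (adjusted p = 0.0107).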

Other observations

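*Thy1* and *Cd52*, chosen after their values were seen, encode abundant GPI-anchored proteins of T cells. *Thy1* measured 436, 197, 201, 201 and 197 FPKM in KO 1 to KO 5, against 258, 157, 148 and 136 FPKM in WT 1 to WT 4. The log2 difference, KO over WT, was 0.24 (limma adjusted p = 0.422), and without WT 1 it was 0.44 (adjusted p = 0.000622). *Cd52* measured 559, 218.8, 199.9, 220.3 and 200.1 FPKM in KO 1 to KO 5, against 606, 311, 332 and 293 FPKM in WT 1 to WT 4. The log2 difference was −0.81 (adjusted p = 0.0572), and −0.57 without WT 1 (adjusted p = 0.000421). *Cd52* also passed with limma-voom on recovered reads (0.0325) and with the term for KO 1 and WT 1 (0.00282), but not with all 9 libraries (0.573). In both genes KO 1 and WT 1 were above all other libraries.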
